A study of Caenorhabditis elegans with 22 samples.

Results

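The vitellogenin genes vit-1 to vit-6 and rme-2, the gene of the yolk receptor, were followed across 22 Affymetrix arrays of Caenorhabditis elegans. Members were taken by annotated symbol, which gave 11 probe sets of 22548 for 6 of the 7 genes, and all 11 reached the level required for testing. Whole young adult hermaphrodites of the Bristol N2 background, raised from an egg lay of 4 hours and picked by hand, were compared in 7 groups. Untreated wild type had 4 arrays. The other 6 groups had 3 arrays each and were isp-1(qm150), nuo-6(qm200), wild type given 0.1 mM paraquat, ced-4(n1162), the double mutant isp-1(qm150) ced-4(n1162) and the double mutant nuo-6(qm200); ced-4(n1162). The product of isp-1 is the Rieske protein of respiratory complex III, nuo-6 encodes a subunit of complex I, and ced-4 the activator of the caspase CED-3, while paraquat is a redox-cycling compound that makes superoxide. The stated aim of the design was an expression pattern shared by isp-1, nuo-6 and paraquat, each set against wild type.

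Vitellogenins are the precursors of yolk lipoproteins. In the adult hermaphrodite the intestine makes them in large amounts and secretes them into the body cavity, and growing oocytes take them up by endocytosis through RME-2, a receptor of the low-density lipoprotein receptor family. vit-1 to vit-5 encode the large yolk polypeptides, and vit-6 encodes a precursor that is cleaved into the smaller ones. The larval intestine does not make yolk, so vitellogenin transcripts appear with the change from the last larval stage to the adult, whereas rme-2 is transcribed in the germ line.

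By the annotation, vit-1 (K09F5.2), vit-2 (C42D8.2), vit-3 (F59D8.1), vit-4 (F59D8.2) and vit-5 (C04F6.1) lie on chromosome X, and vit-6 (K07H8.6) and rme-2 (T11F8.3) on chromosome IV. Neighbouring positions on X are held by vit-3 and vit-4, with 0 protein-coding genes between them. No probe set carried the symbol vit-3, so vit-3 was not analysed here. vit-1 and vit-2 had 1 probe set each, vit-5 had 1, vit-6 had 2 and rme-2 had 1. Of the 3 probe sets annotated vit-4, 171723_x_at and 172134_x_at were bright and 172673_x_at was dim, and 2 further probe sets, 172133_x_at and 194239_x_at, were annotated to vit-4 and vit-5 together. All the vit-4 and vit-5 sets and 173411_s_at of vit-6 are of kinds that may bind more than 1 transcript, so vit-4, vit-5 and other close relatives such as vit-3 cannot be told apart by them, and they are not independent readings.

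The ced-4 transcript was read first as a check of the labels. It stood at 7.62 ± 0.26 (SD, n = 4) in wild type. The nuo-6 ced-4 arrays gave 5.09 ± 0.16, the ced-4 arrays 5.72 ± 0.15 and the isp-1 ced-4 arrays 5.70 ± 0.16 (n = 3 each). The lowest correlation between arrays of a group was 0.9754, for wild type replicates 1 and 3. isp-1 replicate 1 and nuo-6 replicate 1 each correlated best with the other (0.9961) and not with an array of its own group. Within-group spread also differed, with a median SD of 0.298 for wild type, 0.126 for nuo-6 ced-4 and 0.124 for ced-4. The samples are labelled biological replicates, and the labels do not say whether they were separate cultures, so the p-values cover no more than the spread among these samples, which may be technical. Differences are on the log2 scale. A call means a limma adjusted p under 0.05 over all 12639 probe sets tested.

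Vitellogenins were among the brightest signals of these worms in every group. Over the 22 arrays the mean of the vit-5 probe set ranked 13 among the 22548, those of the vit-6 sets 18 and 30, those of the bright vit-4 sets 23 and 27, that of vit-2 140 and that of vit-1 300. On each array the 9 bright vitellogenin sets lay between the 97.1 and the 100 percentile, and rme-2 between the 95.5 and the 98.2 percentile. The dim vit-4 set, from 3.24 to 6.05, lay near the middle of each array and close to the level where background correction decides the value. Whether the scale compresses differences at the bright end, where the highest value of the table was 15.25, was not tested.

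**Figure D1:**
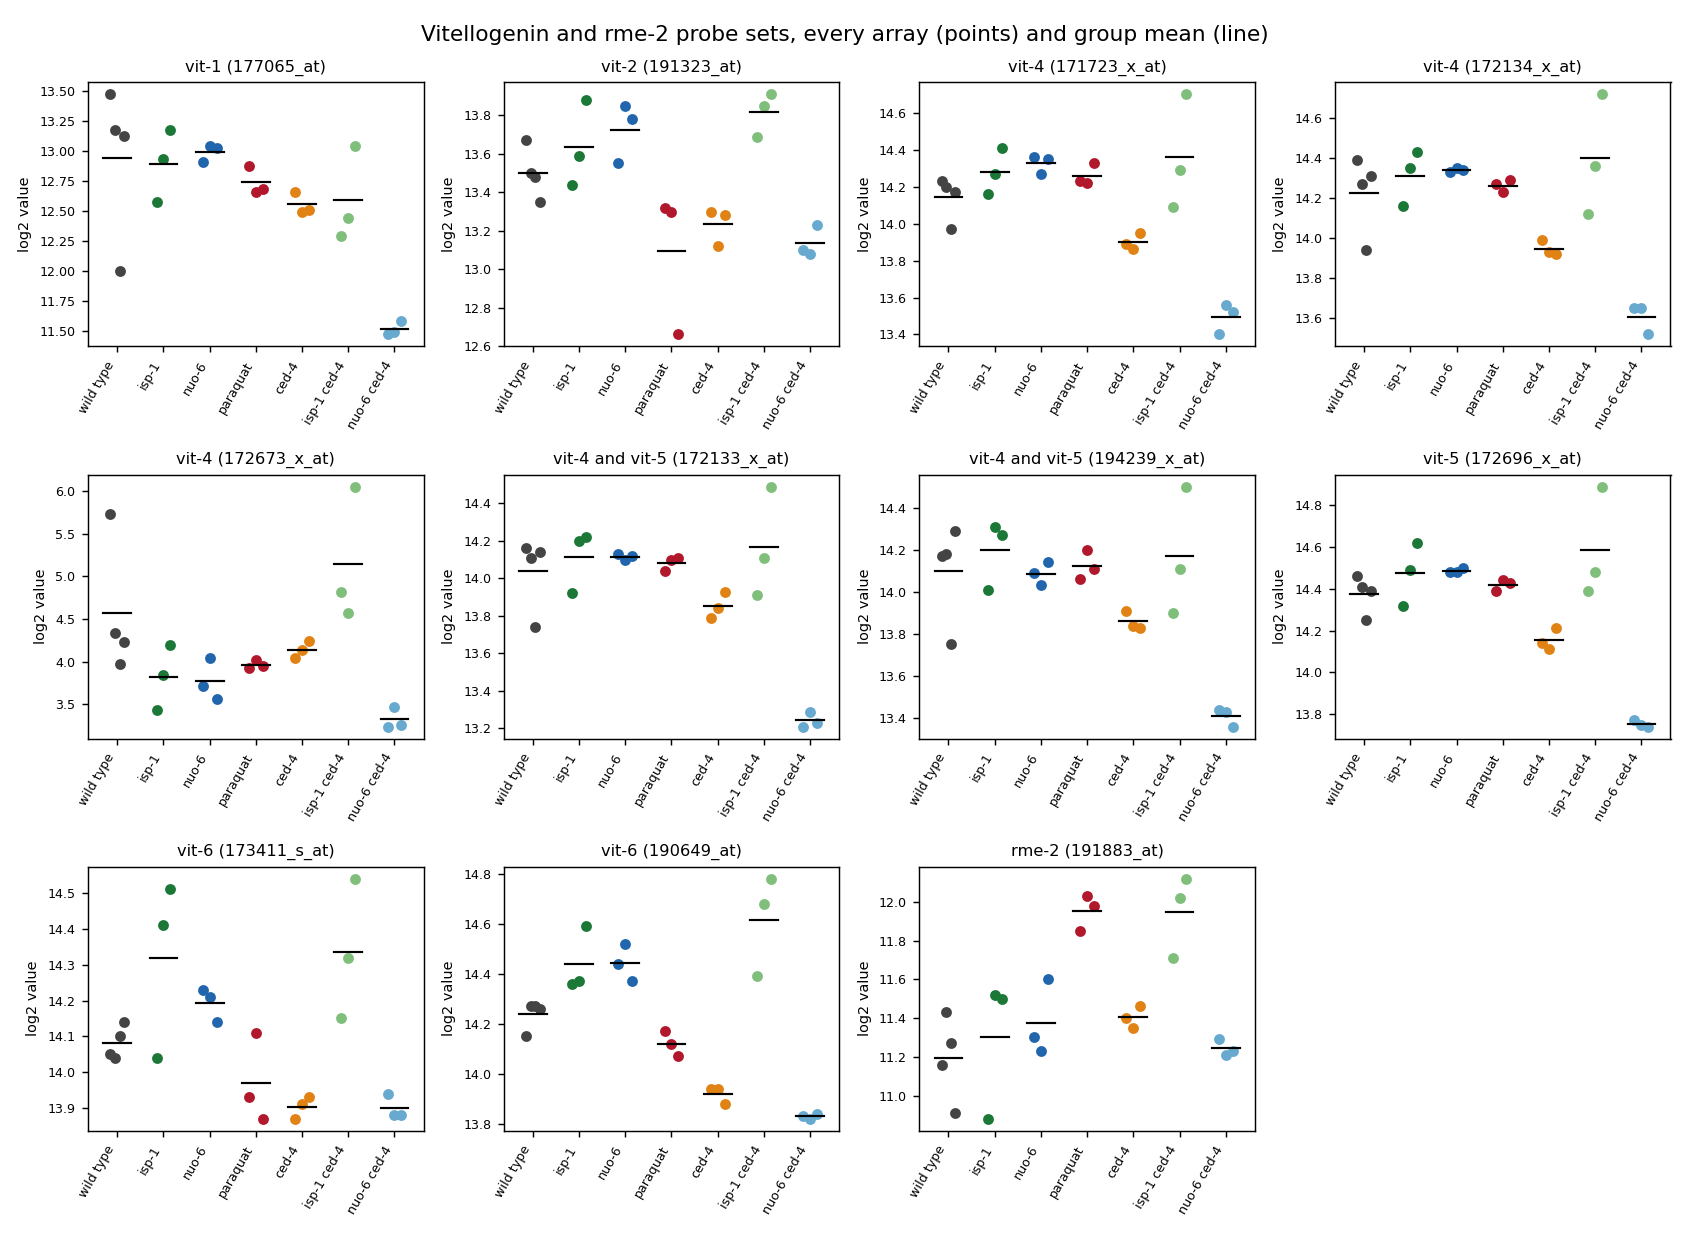
Log2 value (y axis) of each of the 11 probe sets in the 7 groups (x axis), with a point for each array and a line at the group mean; each panel has its own y axis, which does not start at 0. The nuo-6 ced-4 arrays lie lowest for vit-1, for all vit-4 and vit-5 sets and for 190649_at of vit-6, and the paraquat and isp-1 ced-4 arrays lie highest for rme-2.

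In the mitochondrial mutants without ced-4, vitellogenin levels stayed close to wild type. vit-2 read 13.67, 13.50, 13.48 and 13.35 in wild type, 13.44, 13.59 and 13.88 in isp-1, and 13.55, 13.85 and 13.78 in nuo-6. The 3 groups overlapped. The difference was 0.14 in isp-1 (95% interval -0.18 to 0.45, adjusted p = 0.552) and 0.22 in nuo-6 (-0.09 to 0.54, adjusted p = 0.271). Of the 11 member probe sets 0 were called in isp-1, where limma called 22% of all tested probe sets, and 0 in nuo-6, where it called 32.8%. At an unadjusted p under 0.05 there was 1 in each, the dim vit-4 set, at -0.75 and -0.79.

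The bright vitellogenin sets lay slightly above wild type in places, without a call. On 190649_at of vit-6 the arrays read 14.15, 14.27, 14.27 and 14.26 in wild type, 14.36, 14.37 and 14.59 in isp-1, and 14.44, 14.52 and 14.37 in nuo-6, so that neither mutant overlapped wild type. The difference was 0.20 in both mutants, with adjusted p = 0.154 in isp-1 and 0.119 in nuo-6. With the trend and robust options of eBayes it passed, at adjusted p = 0.0498 and 0.0335. The nuo-6 arrays also lay above all wild type arrays on 171723_x_at of vit-4, by 0.18 (adjusted p = 0.267), and on the vit-5 set, by 0.11 (adjusted p = 0.483). Such a separation upward held for 17.4% of all tested probe sets in nuo-6. isp-1 and nuo-6 themselves differed in 0 of the 11 sets by limma, with 0 at an unadjusted p under 0.05, and the bright vitellogenin sets lay between -0.13 and 0.10. That comparison called 0.00791% of all tested probe sets, a single one, with 1390 at an unadjusted p under 0.05.

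Paraquat went with a rise of rme-2 and, less firmly, a fall of vit-2, while the other vitellogenins were near wild type. vit-2 read 13.32, 13.30 and 12.66 on the paraquat arrays, all below the lowest wild type array at 13.35. Replicate 3 was far below the other paraquat arrays. vit-2 fell by 0.41 (SE 0.15, adjusted p = 0.0362). Without paraquat replicate 3 the difference was -0.19 (adjusted p = 0.287), and the call was also lost after loess (-0.31), in a fit of only these 2 groups (adjusted p = 0.164) and without wild type replicate 1, 2 or 3 (-0.35, -0.41 and -0.42).

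The vit-4 and vit-5 sets differed with paraquat by 0.03 to 0.12 outside the dim set, and the vit-6 sets by -0.11 and -0.12, none of them called. Thus 1 vitellogenin probe set of 10 was lower and 0 were higher, where 15.1% of all tested probe sets were lower and 26.4% higher. The median of all tested probe sets itself stood at 0.13 with paraquat and at -0.02 after loess. vit-1 read 12.87, 12.66 and 12.68 with paraquat, and 13.47, 13.17 and 13.12 in wild type replicates 1, 2 and 4. Wild type replicate 3 was lower than these by at least 1.12. Its presence decided the vit-1 result, since the difference was -0.20 (adjusted p = 0.563) with it and -0.51 (adjusted p = 0.026) without it.

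In ced-4 alone all 10 vitellogenin sets had lower means than wild type, by -0.18 to -0.43, while the median of all tested probe sets was -0.05. Only 190649_at of vit-6 was called, 1 of 11 where 9.3% of all tested probe sets were lower. It read 13.94, 13.94 and 13.88 in ced-4, below every wild type array, and it fell by 0.32 (SE 0.10, adjusted p = 0.0325). That call did not outlast leaving out wild type replicate 2, 3 or 4 or any ced-4 array (adjusted p from 0.063 to 0.113), nor loess (-0.24), median centring (-0.26) or the other settings listed in the closing section. vit-5 read 14.14, 14.11 and 14.21 in ced-4 against 14.46, 14.41, 14.25 and 14.39 in wild type, which do not overlap, with a difference of -0.22 (adjusted p = 0.188). vit-1 differed by -0.39 (adjusted p = 0.338), or by -0.70 (adjusted p = 0.0125) without wild type replicate 3.

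The double mutant nuo-6 ced-4 had the lowest vitellogenin levels. Of the 10 vitellogenin probe sets 9 had their lowest group mean there, the exception being vit-2, whose lowest mean was in paraquat. vit-1 read 11.47, 11.49 and 11.58 in nuo-6 ced-4, below all 19 other arrays, against 12.91, 13.04 and 13.02 in nuo-6. It was 2.78-fold lower than in nuo-6, a difference of -1.48 (SE 0.27, adjusted p = 6.13e-04). Against wild type vit-1 fell by 1.43 (SE 0.25, adjusted p = 3.36e-04).

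The vit-4 and vit-5 sets moved in the same direction by smaller steps. vit-5 read 13.77, 13.75 and 13.74 in nuo-6 ced-4 and 14.48, 14.48 and 14.50 in nuo-6, a fall of 0.73 (SE 0.12, adjusted p = 1.73e-04). The bright vit-4 set 171723_x_at read 13.40, 13.56 and 13.52 against 14.36, 14.27 and 14.35, and it fell by 0.83 (SE 0.13, adjusted p = 1.2e-04). The shared set 172133_x_at read 13.21, 13.29 and 13.23 against 14.13, 14.10 and 14.12, and it fell by 0.87 (SE 0.14, adjusted p = 1.65e-04). In none of these 3 sets did an array of one group reach into the other.

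vit-2 and vit-6 gave smaller differences. vit-2 read 13.10, 13.08 and 13.23 in nuo-6 ced-4 and fell by 0.58 against nuo-6 (SE 0.16, adjusted p = 0.0107). On 190649_at vit-6 read 13.83, 13.82 and 13.84 and fell by 0.61 (SE 0.10, adjusted p = 2.99e-04), whereas on 173411_s_at it read 13.94, 13.88 and 13.88 and differed by -0.29 (adjusted p = 0.079). The vit-6 probe sets therefore disagreed on the call but not on the sign. In all, 8 of 11 members were lower against nuo-6, where 18.7% of all tested probe sets were lower, and in 10 of the 10 vitellogenin sets every nuo-6 ced-4 array was below every nuo-6 array, as in 31.1% of all tested probe sets. The median over the vitellogenin sets was -0.71 and that of all tested probe sets -0.09. All 8 calls were kept whichever single array was left out.

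Against wild type the picture was close to that against nuo-6. Again 8 of 11 members were lower, where 17.8% of all tested probe sets were lower, and all 8 calls were kept in every fit that left out 1 array. The vitellogenin median was -0.64. vit-2 differed by -0.36 (adjusted p = 0.0739) and 173411_s_at of vit-6 by -0.18 (adjusted p = 0.235), neither called. The comparisons of the groups with wild type share its 4 arrays.

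Set against ced-4, nuo-6 ced-4 was lower in vit-1 and in part of the vit-4 and vit-5 sets, while vit-2 and vit-6 were not called. vit-1, which read 12.66, 12.49 and 12.51 in ced-4, fell by 1.04 (SE 0.27, adjusted p = 0.0128), and no array of either group reached the other. vit-5 fell by 0.40 (adjusted p = 0.0249), 172133_x_at by 0.61 (adjusted p = 0.00556), 171723_x_at by 0.41 (adjusted p = 0.0368) and 194239_x_at by 0.45 (adjusted p = 0.042). vit-2 differed by -0.09 (95% interval -0.43 to 0.24) and the vit-6 sets by -0.00 (-0.26 to 0.25) and -0.09 (-0.31 to 0.13), the latter on 190649_at, whose arrays did not overlap. Every nuo-6 ced-4 array was below every ced-4 array in 8 of the 10 vitellogenin sets and in 29.1% of all tested probe sets. Thus 5 of 11 members were lower, where 8.47% of all tested probe sets were lower. Leaving out any 1 array of ced-4 or of nuo-6 ced-4 left 2 calls, vit-1 and 172133_x_at.

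**Figure D2:**
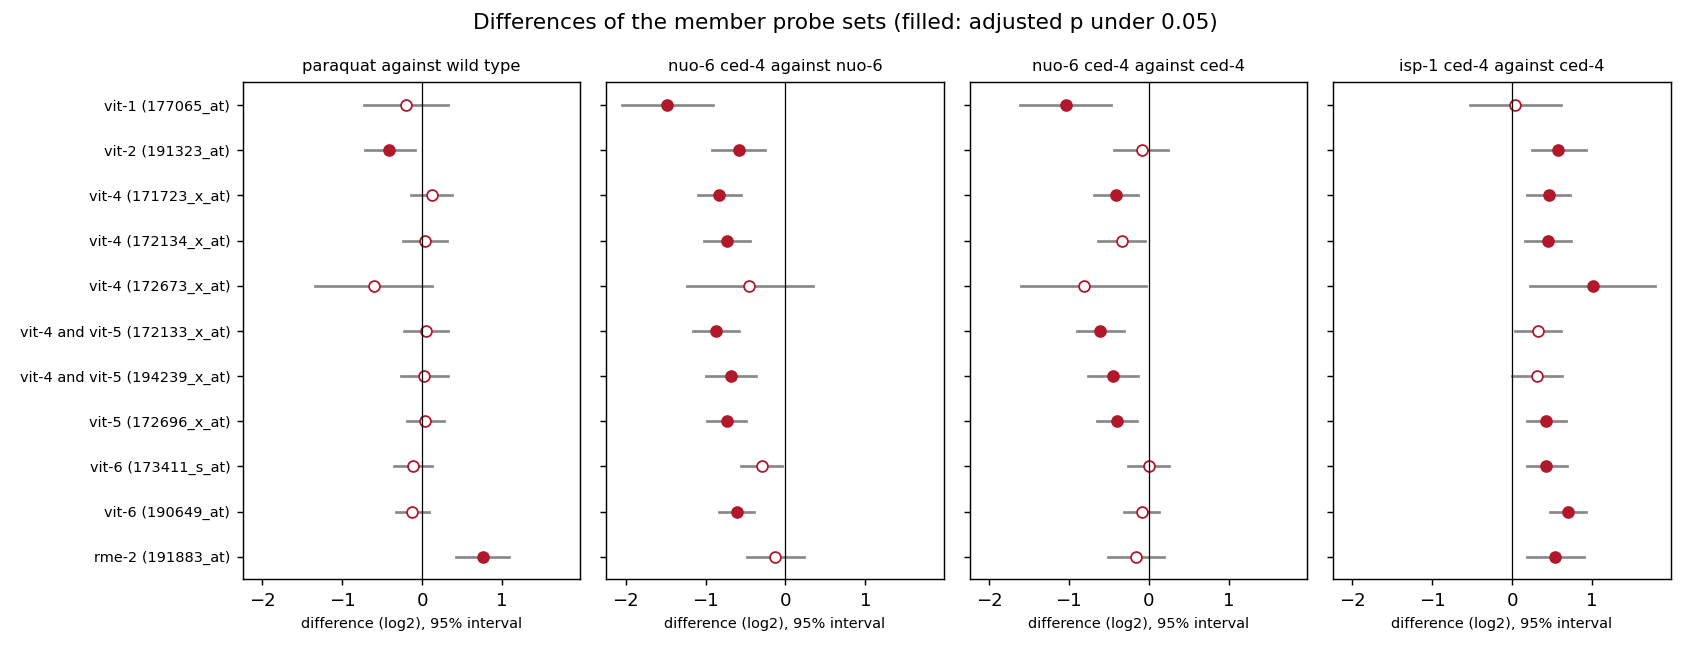
Difference in log2 value (x axis) with its 95% interval for each of the 11 probe sets (y axis) in 4 comparisons, with filled points at an adjusted p under 0.05. nuo-6 ced-4 was below nuo-6 in 8 of the 11 sets and below ced-4 in 5, isp-1 ced-4 was above ced-4 in 8, and paraquat moved rme-2 up and vit-2 down.

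In isp-1 ced-4 the vitellogenins were not low. vit-5 read 14.39, 14.48 and 14.89, vit-2 read 13.69, 13.85 and 13.91, and 190649_at of vit-6 read 14.39, 14.68 and 14.78. Replicate 3 was the highest of the 3 arrays for every member. Against isp-1 the bright vitellogenin sets differed by -0.30 to 0.18, with 0 called by limma and 0 at an unadjusted p under 0.05, and the dim vit-4 set rose by 1.32 (adjusted p = 0.0117), or by 0.87 without replicate 3, where the call was lost (adjusted p = 0.0845). It was also lost without isp-1 replicate 1 (1.13) and in a fit of only these 2 groups. With rme-2, 2 of 11 members were higher against isp-1, where 16% of all tested probe sets were higher.

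Against wild type, vit-6 on 190649_at rose by 0.38 (SE 0.10, adjusted p = 0.004), a call kept without any single array but not in a fit of only these 2 groups (adjusted p = 0.0727). With rme-2 this made 2 of 11 members higher, where 29.2% of all tested probe sets were higher. vit-1 lay in the other direction, with arrays at 12.29, 12.44 and 13.04 and a difference of -0.35 (adjusted p = 0.267). Without wild type replicate 3 vit-1 was lower by -0.66 (adjusted p = 0.0052).

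Against ced-4, isp-1 ced-4 was higher in most members. The largest of these rises among the bright sets was in vit-6, by 0.70 on 190649_at (SE 0.10, adjusted p = 4e-05), and 173411_s_at, which read 13.87, 13.91 and 13.93 in ced-4 and 14.15, 14.32 and 14.54 in isp-1 ced-4, rose by 0.43 (adjusted p = 0.00685). vit-2 rose by 0.58 (SE 0.16, adjusted p = 0.00579) and vit-5 by 0.43 (SE 0.12, adjusted p = 0.00573). vit-1 did not follow, with a difference of 0.04 (95% interval -0.53 to 0.61). In this comparison 8 of 11 members were higher, where 31.2% of all tested probe sets were higher, and the median of all tested probe sets was 0.17, or 0.01 after loess. The calls of vit-2, vit-5 and both vit-6 sets were kept without any single array. Those of the vit-4 sets were not, since without isp-1 ced-4 replicate 3 the difference of 171723_x_at was 0.30 (adjusted p = 0.0523), that of 172134_x_at 0.29 (adjusted p = 0.0892) and that of the dim set 0.56 (adjusted p = 0.215). The dim set's call was also lost without any one of the ced-4 arrays (0.96 to 1.06).

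The double mutants differed from each other in every member. isp-1 ced-4 was higher than nuo-6 ced-4 in 11 of 11 sets, where 33.4% of all tested probe sets were higher, and all 11 calls were kept without any single array. vit-1 was higher by 1.08 (SE 0.27, adjusted p = 0.00283), vit-2 by 0.68 (SE 0.16, adjusted p = 0.00182), vit-5 by 0.83 (SE 0.12, adjusted p = 2.08e-05) and vit-6 by 0.79 on 190649_at (SE 0.10, adjusted p = 1.13e-05). The median over the vitellogenin sets was 0.81, and that of all tested probe sets 0.17, or -0.02 after loess.

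Whether a mitochondrial mutation went with another difference in the ced-4 background than in the wild type background was tested as an interaction. For nuo-6 the interaction was below 0 in all 10 vitellogenin sets, and 3 of 11 members were called lower, where 4.98% of all tested probe sets were. These were 172133_x_at at -0.69 (SE 0.19, adjusted p = 0.0286), 171723_x_at at -0.59 (SE 0.18, adjusted p = 0.0408) and vit-5 at -0.51 (SE 0.16, adjusted p = 0.0496). vit-1 had the largest value, -1.09 (SE 0.37, adjusted p = 0.0674), and was not called. These calls are unsteady, since leaving out 1 array gave 0 to 4 called members.

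For isp-1 the interaction was above 0 in all 10 vitellogenin sets, and 2 of 11 members were called higher, where 8.99% of all tested probe sets were. vit-6 on 190649_at had 0.50 (SE 0.14, adjusted p = 0.0235) and the dim vit-4 set 1.75 (SE 0.51, adjusted p = 0.0253). Leaving out 1 array gave 0 to 2 called members, and a fit of only these 4 groups gave 0.

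**Figure D3:**
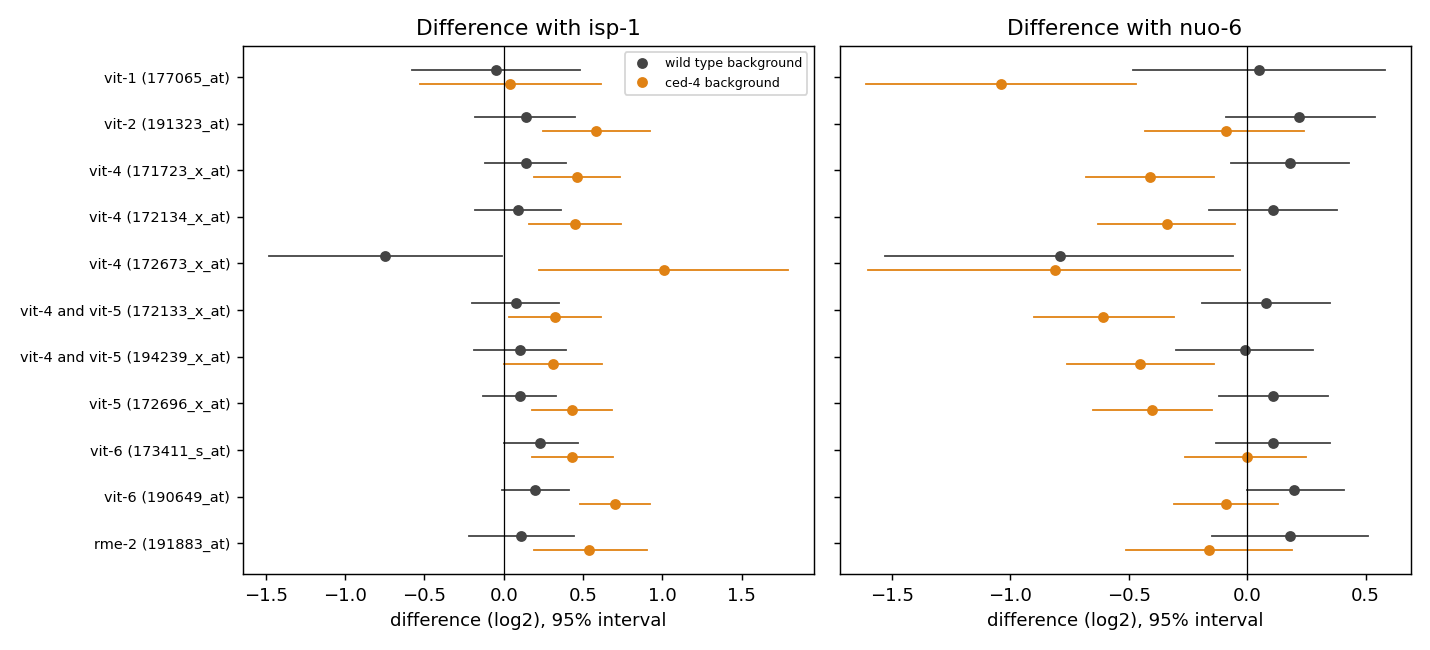
Difference in log2 value (x axis) with its 95% interval for each of the 11 probe sets (y axis), for isp-1 (left) and nuo-6 (right), in the wild type background (grey) and in the ced-4 background (orange). For nuo-6 the vit-1 difference was 0.05 in the wild type background and -1.04 in the ced-4 background; for isp-1 the corresponding values of 190649_at were 0.20 and 0.70.

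Ordered by group mean, vit-5 ran from 14.58 in isp-1 ced-4 through nuo-6 (14.49), isp-1 (14.48), paraquat (14.42), wild type (14.38) and ced-4 (14.15) to 13.75 in nuo-6 ced-4. The first 5 of these groups overlapped with their neighbours, and the steps from wild type to ced-4 and from ced-4 to nuo-6 ced-4 did not. vit-1 ran from 12.99 in nuo-6 to 11.51 in nuo-6 ced-4, and only its last step, from ced-4 at 12.55, separated neighbours. For vit-2 the order was isp-1 ced-4 (13.82), nuo-6 (13.72), isp-1 (13.64), wild type (13.50), ced-4 (13.23), nuo-6 ced-4 (13.14) and paraquat (13.09), and only wild type and ced-4 did not overlap. On 173411_s_at of vit-6 each of the 6 neighbouring pairs overlapped, between 14.34 and 13.90.

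Within groups the vit-4 and vit-5 sets also rose and sank together from array to array. Deviations of the 22 arrays from their group means correlated at 0.826 to 0.935 among the bright vit-4 and vit-5 sets, which share target sequence. With vit-1 these sets correlated at 0.744 to 0.88, with vit-6 at 0.434 to 0.74 and with vit-2 at 0.206 to 0.379. vit-2 thus had the lowest values of the vitellogenins. All points share the array and its normalization, so these values are a description.

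The yolk receptor followed another order of groups. rme-2 read 11.16, 11.43, 11.27 and 10.91 in wild type, 11.85, 12.03 and 11.98 with paraquat, and 11.71, 12.02 and 12.12 in isp-1 ced-4. Every paraquat and isp-1 ced-4 array lay above every array of the other 5 groups. In isp-1 rme-2 read 10.88, 11.52 and 11.50, in nuo-6 11.30, 11.23 and 11.60, in ced-4 11.40, 11.35 and 11.46, and in nuo-6 ced-4 11.29, 11.21 and 11.23. These 4 groups overlapped with wild type.

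rme-2 rose by 0.76 with paraquat, 1.7-fold (SE 0.16, adjusted p = 7.44e-04), and by 0.76 in isp-1 ced-4 against wild type (SE 0.16, adjusted p = 6.63e-04). Both calls were kept under every alternative, between 0.67 and 0.84 and between 0.64 and 0.88 on the log2 scale. isp-1 ced-4 was also above nuo-6 ced-4 by 0.71 (SE 0.17, adjusted p = 0.0019) and above isp-1 by 0.65 (SE 0.17, adjusted p = 0.00698), the latter not in a fit of only these 2 groups (adjusted p = 0.0866). Against ced-4 it rose by 0.54 (SE 0.17, adjusted p = 0.0118), a call lost after loess (0.37, adjusted p = 0.0544) and without isp-1 ced-4 replicate 3 (0.46, adjusted p = 0.0582). Between nuo-6 ced-4 and ced-4 the rme-2 difference was -0.16 (95% interval -0.51 to 0.19), while vit-1 fell by 1.04 there.

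Other oocyte transcripts were also high in the groups where rme-2 was called higher than wild type. In whole worms, fewer cells of a type and less RNA per cell cannot be told apart. Of 31 oocyte markers, such as the RNA-binding protein genes oma-1 and puf-5, all 31 were tested. With paraquat 28 rose and 0 fell (median 0.78), and likewise 28 and 0 in isp-1 ced-4 against wild type (median 0.68). puf-5 rose in both groups, by 1.26 with paraquat and by 0.94 in isp-1 ced-4. oma-1 rose by 1.16 with paraquat but was not called in isp-1 ced-4 (0.16, adjusted p = 0.546). Of all tested probe sets 26.4% rose and 15.1% fell with paraquat, and 29.2% rose and 21.1% fell in isp-1 ced-4. The mean of the oocyte list was 10.06 to 10.65 in wild type, 11.18 to 11.29 with paraquat and 10.97 to 11.23 in isp-1 ced-4, and 9.97 to 10.08 in nuo-6 ced-4. In nuo-6 ced-4 part of the list was called lower and rme-2 was not. There 0 oocyte markers rose and 19 fell against nuo-6 (median -0.40), where 18.7% of all tested probe sets were lower. Against wild type 0 rose and 12 fell (median -0.24), where 17.8% of all were lower. Against ced-4 0 rose and 6 fell (median -0.32), where 8.47% of all were lower. rme-2 also lay lower than in nuo-6, by -0.13 (adjusted p = 0.605), and whether it departed from the list was not tested. The falls of oocyte markers stood beside the lower vitellogenins of nuo-6 ced-4, and their part in that difference was not tested. Of 31 tested sperm markers 29 fell and 2 rose with paraquat, and 29 fell and 0 rose in isp-1 ced-4 against wild type, and the list mean of 10.17 to 10.66 in wild type was 8.44 to 8.82 with paraquat and 7.29 to 9.34 in isp-1 ced-4. In these 2 groups 5 of 6 tested zygotic embryo genes also rose and 1 fell, with list means of 6.80 to 6.88 and 6.42 to 6.96 against 5.45 to 5.92 in wild type. The part of these levels in the rme-2 difference was not tested.

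**Figure D4:**
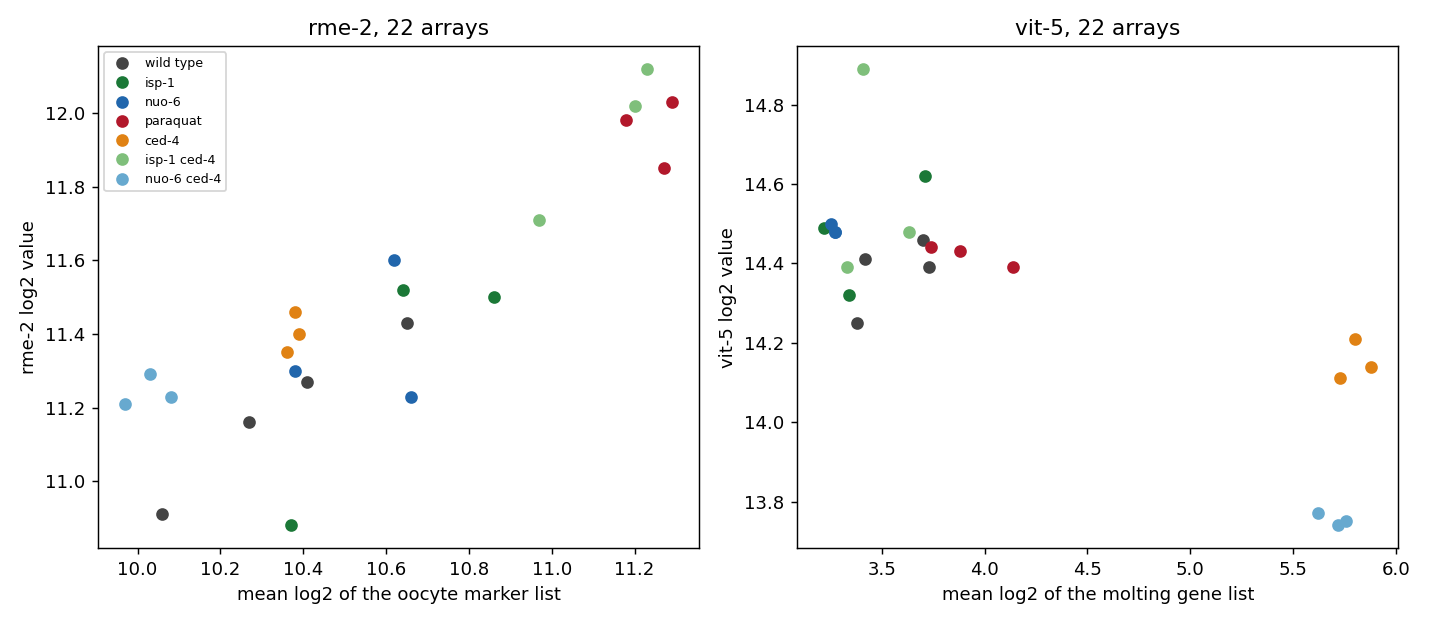
Left, rme-2 log2 value (y axis) against the mean log2 value of 31 oocyte markers (x axis); right, vit-5 log2 value (y axis) against the mean log2 value of 18 molting genes (x axis); each point is 1 of the 22 arrays, coloured by group. The paraquat and isp-1 ced-4 arrays lie at the upper right on the left panel, and the ced-4 and nuo-6 ced-4 arrays lie apart on the right panel, with molting means above 5.62.

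The groups with the lowest means of vit-1, of vit-5 and of the bright vit-4 sets also had the highest molting transcripts. For vit-1 this rests on a gap of 0.04 between ced-4 (12.55) and isp-1 ced-4 (12.59), whose arrays overlapped. Of 18 tested molting genes, 15 rose and 0 fell in ced-4 against wild type (median 1.73), where 6.51% of all tested probe sets were higher. In nuo-6 ced-4 against wild type 15 rose and 0 fell (median 1.74), where 14.2% of all were higher. The molting genes that rose included bli-1, a cuticle collagen gene, by 5.50 and 5.62, and ptr-4, a gene of the patched-related family, by 2.94 and 1.97. The list mean was 5.73 to 5.88 in ced-4 and 5.62 to 5.76 in nuo-6 ced-4. It was 3.38 to 3.73 in wild type, 3.22 to 3.71 in isp-1, 3.25 to 3.27 in nuo-6, 3.74 to 4.14 with paraquat and 3.33 to 3.63 in isp-1 ced-4. Between nuo-6 ced-4 and ced-4, where vit-1 fell by 1.04, 1 molting gene was higher and 3 were lower (median 0.16). Of 9 adult cuticle collagens 6 rose and 0 fell in that comparison, and 2 rose and 6 fell when nuo-6 ced-4 was set against nuo-6. Of all tested probe sets 8.88% were higher and 8.47% lower against ced-4, and 11.2% and 18.7% against nuo-6. The 2 collagens that rose against nuo-6 were rol-6 and col-120. In ced-4 alone against wild type they also rose, by 1.68 and 6.14, while col-8, col-19, col-122 and col-140 fell. The part of developmental timing in the vitellogenin differences was not tested.

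Markers of the intestine, the tissue that makes yolk, were called in both directions. Of 27 intestine markers 26 were tested. Against wild type 4 rose and 7 fell in nuo-6 ced-4, where limma called 32% of all tested probe sets, and 1 rose and 8 fell in the isp-1 double mutant, where it called 50.4%. With paraquat 0 rose and 7 fell, where it called 41.5%. In isp-1 there were 0 higher and 5 lower, in nuo-6 3 and 3, and in ced-4 1 and 1. In these 3 groups limma called 22%, 32.8% and 15.8% of all tested probe sets. Against ced-4 nuo-6 ced-4 had 0 higher and 4 lower, where 17.3% of all were called. isp-1 ced-4 had 1 higher and 7 lower against ced-4, where 52.2% of all were called. Against nuo-6, nuo-6 ced-4 had 1 higher and 5 lower, with a median of -0.06. There 11.2% of all tested probe sets were higher and 18.7% lower, so the number lower was near that share. The list mean was 9.81 to 10.02 in wild type, 10.03 to 10.10 in ced-4, 9.67 to 9.68 in nuo-6 ced-4 and 9.48 to 9.61 in isp-1 ced-4. elt-2, the gene of the GATA factor that drives intestinal transcription, had group means of 6.24 both in wild type and in ced-4, 6.44 in nuo-6 ced-4 and 6.41 in the isp-1 double mutant. Other markers of the list moved far more. Against wild type fat-7 differed by -6.71 in nuo-6 ced-4 (adjusted p = 1.83e-08) and by -5.03 in isp-1 ced-4 (adjusted p = 8.07e-07). pes-8 rose by 4.43 in ced-4 and by 4.09 in nuo-6 ced-4, and elt-7 differed by -1.02 in nuo-6 ced-4 (adjusted p = 0.0187). Of 15 genes listed as gonadal sheath and spermatheca markers, 5 rose and 0 fell with paraquat, where 26.4% of all tested probe sets were higher. Among the 5 were lin-3, inx-22, inx-14 and inx-8. The list is not specific to these cells, and itr-1 is also an intestine marker here. In nuo-6 ced-4 against ced-4 2 rose and 0 fell, where 8.88% of all were higher. Against nuo-6 this double mutant had nmy-1, plc-1 and let-23 higher and lin-3, inx-22, fos-1 and lim-7 lower. Of all tested probe sets 11.2% were higher and 18.7% lower in that comparison. In isp-1 ced-4 against wild type inx-14, inx-22 and lin-3 rose and fln-1 and plc-1 fell, where 29.2% of all rose and 21.1% fell.

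Part of the genes of yolk uptake and endosomal transport rose in the groups where rme-2 was high. Of 17 tested genes 8 rose and 0 fell with paraquat (median 0.37), where 26.4% of all tested probe sets rose. In isp-1 ced-4 against wild type 12 rose and 0 fell (median 0.71), where 29.2% of all rose. By contrast 1 rose in isp-1, where 12.3% of all rose. In nuo-6 2 rose and 1 fell, where 18% of all rose and 14.8% fell. rab-7, the GTPase gene of late endosomes, rose by 1.43 with paraquat (adjusted p = 9.27e-05) and by 1.42 in isp-1 ced-4 (adjusted p = 8.63e-05). dyn-1, the gene of dynamin, which cuts coated vesicles from the membrane, rose by 1.33 and 1.32 in these groups. rme-6, a regulator of the endosomal GTPase RAB-5, rose by 0.76 in isp-1 (adjusted p = 0.0165) and by 1.22 with paraquat.

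In the comparison of nuo-6 ced-4 with nuo-6, 0 of the 17 rose and 3 fell. That number was near the 18.7% of all tested probe sets that were lower. The 3 were rab-7 by 2.21 (adjusted p = 4.34e-06), rab-5 by 1.18 (adjusted p = 1.81e-05) and snx-1, a sorting nexin gene, by 1.07 (adjusted p = 1.89e-04). Against wild type 1 rose and 7 fell in nuo-6 ced-4, with rab-7 lower by -1.38, rab-5 by -0.68 and snx-1 by -0.73. Of all tested probe sets 14.2% were higher and 17.8% lower there. These 3 genes were also lower in ced-4 alone against wild type. There rab-7 differed by -0.83 (adjusted p = 0.0227), rab-5 by -0.59 (adjusted p = 0.00806) and snx-1 by -0.54 (adjusted p = 0.0319), while apa-2 rose by 1.06. Between nuo-6 ced-4 and ced-4 none of the 3 was called, with rab-7 at -0.55, rab-5 at -0.09 and snx-1 at -0.20. Against ced-4, 8 rose and 0 fell in isp-1 ced-4, where 31.2% of all tested probe sets were higher. Among the 8 was chc-1, the clathrin heavy chain gene, by 1.40 (adjusted p = 1.64e-04). Most of these genes act in many tissues besides the oocyte.

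Of 5 genes of lipoprotein assembly and the low-density lipoprotein receptor family, lrp-1, a megalin homologue of the epidermis, rose in each mutant against wild type. It rose by 0.60 in isp-1 (adjusted p = 0.00956), by 0.55 in nuo-6 (adjusted p = 0.0107), and by 0.52 in ced-4 (adjusted p = 0.0284). In the double mutants lrp-1 rose by 1.07 with nuo-6 (adjusted p = 4.14e-05) and by 0.49 with isp-1 (adjusted p = 0.0137). lrp-2, which is known to promote vitellogenin transcription, fell by 1.13 in isp-1 ced-4 against wild type (adjusted p = 9.05e-05). sar-1, the GTPase gene of vesicles that leave the endoplasmic reticulum, rose by 0.40 there (adjusted p = 0.0092).

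Some known regulators of vitellogenin transcription were called in isp-1 and nuo-6, where 0 members were called, though in numbers not above the 22% and 32.8% of all tested probe sets. Of 24 on the array 19 were tested, and 1 rose and 2 fell in isp-1 and 1 rose and 3 fell in nuo-6. With paraquat 2 rose and 3 fell, where 41.5% of all tested probe sets were called. ceh-60, a homeobox gene that promotes vitellogenin transcription, fell by 1.39 in isp-1 (adjusted p = 1.17e-04), by 1.78 in nuo-6 (adjusted p = 5.45e-06) and by 0.85 with paraquat (adjusted p = 0.00173). unc-62, the gene of its homeobox partner, fell by 0.88 in nuo-6 (adjusted p = 0.0069). rict-1, the gene of Rictor in TOR complex 2, rose by 0.85 in isp-1, by 1.24 in nuo-6 and by 0.98 with paraquat. sgk-1, also on this list, was lower in the same groups. It differed by -0.74 in isp-1 (adjusted p = 0.0115), by -0.85 in nuo-6 (adjusted p = 0.00303) and by -0.64 with paraquat (adjusted p = 0.0133).

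Both double mutants had lower ceh-60 than wild type. ceh-60 stood at 5.70 in nuo-6 ced-4 and 4.90 in isp-1 ced-4, against 6.66 in wild type and 6.58 in ced-4. For ceh-60 the nuo-6 double mutant lay 0.81 above nuo-6 (adjusted p = 0.00677). The same double mutant differed from ced-4 by -0.88 (adjusted p = 0.00666) and from wild type by -0.97 (adjusted p = 9.9e-04). The part of ceh-60 in the vitellogenin differences was not tested. pqm-1, a zinc finger gene, fell by 0.90 with paraquat (adjusted p = 0.00228) and by 0.75 in ced-4 (adjusted p = 0.0236). In ced-4 it was the only one of the 19 called.

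Transcripts most like the members over the 22 arrays were found by Pearson correlation, as a description. For vit-2 they were F32D8.11 (0.894), mau-8 (0.84), got-2.1 (0.818), nubp-1 (0.807) and tpi-1 (0.801), the last the gene of triosephosphate isomerase. For rme-2 they were hmp-2, the beta-catenin gene of adherens junctions, at 0.952, ptr-2 (0.948), clec-87 (0.934), F31A3.5 (0.93) and ZK643.2 (0.925). The paraquat and isp-1 ced-4 arrays form a cluster apart for rme-2, and between-group differences enter all these values.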

How the data were processed

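The authors deposited log2 values, summarised with GCRMA per the submitters' processing notes. Which version and settings they used, and if all arrays went into 1 normalization, is not given in the sources used here. The log base was read from the range, 0.926 to 15.25. Of 22625 probe sets, 77 controls were left out, and 12639 sets at or above the table's median, 3.68, on at least 3 arrays were tested. Gene names come from the platform annotation, and symbols were updated through entrez ID for 20701 of the 20766 sets with 1 symbol. The 7 groups entered 1 means model (limma 3.58.1, R 4.3.3, lmFit with eBayes), two-sided, with Benjamini-Hochberg adjustment within each of 14 comparisons. All members are named, and from each gene list only some of the called genes, mostly those with the smallest p. Members and lists were chosen with earlier results of these data known. Alternatives were another filter and none, loess, median centring, percentile ranks, replicate number as block, fits of the compared groups alone, eBayes with trend and robust, and each array left out. Replicate numbers were not treated as pairs, since 0 of 12 comparisons had every same-number correlation over 0.1. With so few arrays this rule cannot exclude a shared batch. The correlations ran from -0.246 to 0.249, the highest for replicate 1 of nuo-6 and isp-1. Arrays have no read depth, and their number limits the precision. The steps were tested on simulated data.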

Additional observations from a re-analysis of the deposited data

Results flagged for a closer look

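Wild type arrays set apart from their group were found for 2 of the 11 probe sets by Dixon's ratio of the gap to the range, which chance alone exceeds in about 1 in 20 groups. For 172133_x_at of vit-4 and vit-5 the ratio was 0.87, with replicate 3 at 13.74 and the others at 14.11 to 14.16. For 190649_at of vit-6 it was 0.949, with replicate 1 at 14.15 and the others at 14.26 to 14.27.

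The difference that went with a mitochondrial mutation was not the same with and without ced-4 for 5 probe sets, tested as an interaction in limma. With isp-1 it was 1.75 for the dim vit-4 set 172673_x_at and 0.50 for 190649_at of vit-6. With nuo-6 it was -0.59 for 171723_x_at of vit-4, -0.69 for 172133_x_at of vit-4 and vit-5, and -0.51 for vit-5. None of these 5 calls was kept in every fit that left out 1 array.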

How the results depend on the processing

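No result changed sign while called. Numbers of called members, out of 11, changed as follows. Loess gave 1 in isp-1, 1 in nuo-6, 1 with paraquat and 0 in ced-4 against wild type, and 1 for the isp-1 interaction. Median centring gave 0 in ced-4 and 1 for the nuo-6 interaction. The replicate block gave 0 in ced-4 and 1 for the nuo-6 interaction. It also left 4 of the 5 calls of nuo-6 ced-4 against ced-4. Whether the replicate numbers mark shared batches is not known, so no conclusion is drawn from these changes. Fits of only the groups compared gave 0 in ced-4, 1 with paraquat, 1 in isp-1 ced-4 against wild type, 0 against isp-1 and 0 for the isp-1 interaction. The trend and robust options gave 1 in isp-1 and 1 in nuo-6.

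Percentile ranks gave 0 in ced-4, 1 with paraquat, 2 in nuo-6 ced-4 and 1 in isp-1 ced-4 against wild type, 1 for nuo-6 ced-4 against nuo-6, 1 for each double mutant against ced-4, 3 between the double mutants, 1 for the isp-1 interaction and 0 for the nuo-6 interaction. The 9 bright vitellogenin sets lie above the 97.1 percentile on every array, so ranks leave them little room by construction.

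Leaving out each array gave 0 to 1 in isp-1, 0 to 1 in nuo-6, 1 to 2 with paraquat, 0 to 1 in ced-4 and 2 to 5 in isp-1 ced-4 against wild type. It gave 1 to 3 for isp-1 ced-4 against isp-1, 4 to 10 against ced-4, 2 in nuo-6 ced-4 against ced-4, 0 to 2 for the isp-1 interaction and 0 to 4 for the nuo-6 interaction. The causes were not tested, beyond the fewer arrays of those fits.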
